A study of Mus musculus with 12 samples.

Results

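Matrix metalloproteinases (MMPs) are zinc-dependent enzymes, secreted or held at the cell surface, that cut collagens, proteoglycans and other matrix proteins. They are made as latent precursors, and the tissue inhibitors of metalloproteinases (TIMPs) bind their active sites. In cartilage, the balance between both groups is known to set how fast the matrix is turned over, and MMP genes are widely used as markers of matrix breakdown and of chondrocyte hypertrophy. The genes described here are 10 of the 54532 in the deposited table, picked by symbol. They are 6 MMP genes (Mmp2, Mmp3, Mmp10, Mmp13, Mmp14 and Mmp19), 3 TIMP genes (Timp1, Timp2 and Timp3) and Adamts1, a secreted metalloproteinase gene of the related ADAMTS family. All 10 were found, and all 10 passed the filter on low counts that left 14424 genes tested.

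The levels come from RNA sequencing of poly(A)-selected RNA of ATDC5, a wild-type mouse line of cartilage progenitor cells used as a culture model of chondrocytes. Cells grown at 37 °C in high-sugar DMEM with serum were exposed for 10 min to 37 °C, 40 °C or 44 °C, with 4 libraries at each temperature that the series design calls biological replicates. The interval between exposure and RNA extraction is not given in the sources used here. No differentiation step is described, so the groups model undifferentiated cells of 1 line. The question of the series was the effect of temperature on chondrocyte growth, and the comparisons below ask which protease and inhibitor genes differed between temperatures.

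Total counts lay between 16269026 and 19506705 per library, and the 10 genes together took between 0.0570% and 0.0743% of them. The marker genes fixed for chondrocytes gave 57.9 to 90.1 CPM (counts scaled to a common library size with trimmed mean of M values, TMM, factors) summed at 37 °C. Most of that was Sox9, the chondrogenic transcription factor gene, at 54.2 CPM, while the cartilage matrix genes Col2a1 (1.21 CPM) and Acan (2.13 CPM) were low and Matn1, Col9a1 and Hapln1 were at 0 in all 12 libraries. Replicates also differed from each other in a shared way, summarised here as a within-group axis: the leading principal component of the deviations from group means, with 29.7% of their variance. The score of a library on this axis was taken around the mean of all 12 libraries. It therefore also holds differences between temperatures, and its order is not that of deviations within a group. Scores were high for 37C replicate 1 (1.47) and 44C replicate 1 (1.07), and low for 44C replicate 2 (−1.50), 40C replicate 2 (−1.46) and 44C replicate 4 (−1.38).

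Mmp3, Mmp10 and Mmp13 stand in 1 gene cluster on chromosome 9, and the 250 bases before their RefSeq start sites are shown because they share short elements close to the start. Sequences are from RefSeq on GRCm38.p6 (the mm10 build), 5′ to 3′ on the strand of the gene. Capitals mark the AP-1 element TGANTCA (N is any base), which AP-1 factors of the Fos and Jun families are known to bind, and the TATA box TATAAA. All 3 genes lie on the plus strand.
Mmp3, chr9:7445572-7445821: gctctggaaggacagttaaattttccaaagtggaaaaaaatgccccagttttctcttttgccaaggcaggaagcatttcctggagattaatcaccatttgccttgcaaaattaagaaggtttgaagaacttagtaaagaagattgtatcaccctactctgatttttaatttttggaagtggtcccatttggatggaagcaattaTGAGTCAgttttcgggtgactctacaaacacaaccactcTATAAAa
Mmp10, chr9:7502092-7502341: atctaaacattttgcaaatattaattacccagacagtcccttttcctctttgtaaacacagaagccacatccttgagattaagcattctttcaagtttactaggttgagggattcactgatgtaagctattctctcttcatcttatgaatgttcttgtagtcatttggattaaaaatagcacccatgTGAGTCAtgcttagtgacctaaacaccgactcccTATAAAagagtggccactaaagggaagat
Mmp13, chr9:7272264-7272513: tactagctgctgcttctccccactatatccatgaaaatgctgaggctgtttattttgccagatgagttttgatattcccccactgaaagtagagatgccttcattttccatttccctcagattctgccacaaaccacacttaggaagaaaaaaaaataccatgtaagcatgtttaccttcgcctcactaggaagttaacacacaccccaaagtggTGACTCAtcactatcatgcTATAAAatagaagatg

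Of the 10 genes, 8 had a promoter entry, and Mmp2 and Mmp19 had none. All motifs were searched on both strands. TGANTCA was present in 3 of the 8, the chromosome 9 genes Mmp3 (TGAGTCA, at −46 to −40 from the RefSeq start), Mmp10 (TGAGTCA, at −63 to −57) and Mmp13 (TGACTCA, at −35 to −29). The same letters occurred in 6.75% of all 32851 promoter windows of this length. TATAAA, a motif added after the sequences were read, was present in those 3 and in Adamts1, against 12.4% of all windows, and 1.21% of all windows held both motifs. It lay at −7 to −2 in Mmp3, −29 to −24 in Mmp10, −16 to −11 in Mmp13 and −32 to −27 in Adamts1. Its distance from the RefSeq start thus differed between genes, so the positions of TGANTCA may not be comparable between them. The ETS-type element AGGAAG, also added, was in 5 of the 8 (Mmp3, Mmp13, Mmp14, Timp1 and Timp3) and in 29.5% of all windows. A heat shock element of 3 units (GAA, TTC and GAA, each parted by NN, which on the opposite strand reads TTC, GAA and TTC) had no match in the 8 and was in 0.466% of all windows. No motif overlapped another in the printed capitals. These matches describe letters, and binding was not measured.

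The most abundant of the 10 genes per length at 37 °C was Timp1, an MMP inhibitor gene, at 178 ± 4.51 RPKM (CPM per kilobase of deposited gene length, mean ± SD, n = 4). Timp2 followed at 68.7 ± 3.84 RPKM and Mmp14, the gene of a membrane-type MMP, at 32 ± 0.303 RPKM. The inhibitor genes Timp1 and Timp2 and 1 cell-surface protease gene stood above the 6 other protease genes of the 10. Adamts1 (5.99 RPKM), Mmp10 (4.90), Mmp3 (3.81), Mmp19 (2.83), Mmp2 (2.33), Timp3 (1.35) and Mmp13 (0.38) came next at 37 °C. Neighbours in this order did not overlap between libraries except Adamts1 with Mmp10, Mmp3 with Mmp19 and Mmp19 with Mmp2. The first 3 places were the same at 40 °C and 44 °C. At 44 °C Mmp10 (7.10 ± 0.886 RPKM) and Mmp3 (6.42 ± 0.886 RPKM) stood above Adamts1 (5.29 ± 0.733 RPKM) in the means, though the libraries of Mmp3 and Adamts1 overlapped there.

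**Figure D1:**
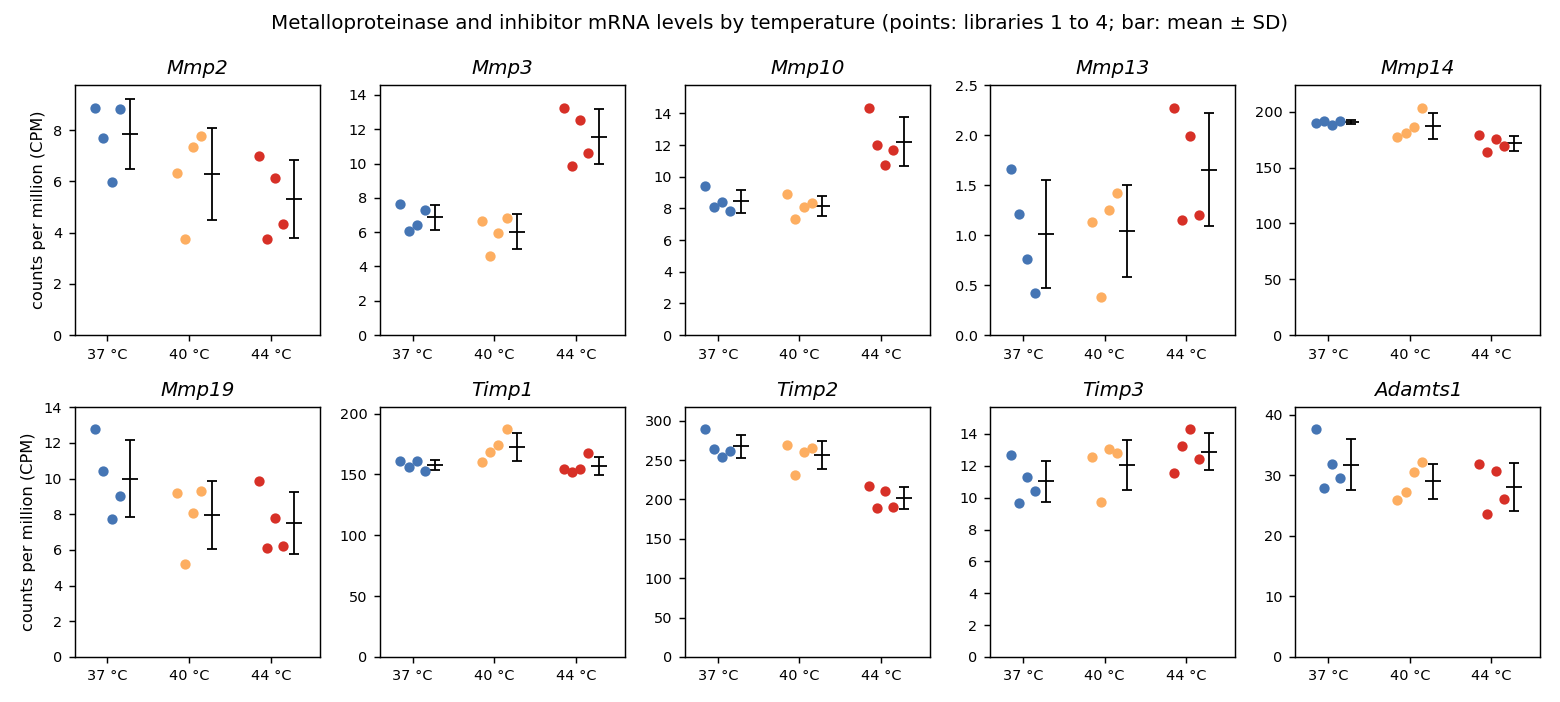
TMM-scaled CPM of the 10 genes in each of the 12 libraries (points) at 37 °C, 40 °C and 44 °C, with the mean and SD of 4 libraries beside them. Mmp3 and Mmp10 at 44 °C lie above, and Timp2 at 44 °C lies below, all libraries of both other temperatures.

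At 44 °C the protease genes Mmp3 and Mmp10 rose and 1 inhibitor gene fell. Mmp3 encodes stromelysin 1 and Mmp10 stromelysin 2, closely related secreted proteases that cut proteoglycans and can activate other latent MMPs. Timp2 encodes the inhibitor that both blocks MMPs and helps the MMP14 protein to activate latent MMP2. In all, 2 of 10 members were called higher and 1 lower for 44 °C against 37 °C (edgeR quasi-likelihood test, Benjamini-Hochberg adjusted p under 0.05 over all genes tested). Of all 14424 genes tested 13.7% were called, 6.58% higher and 7.11% lower. Without 44C replicate 1, 5 of the 10 were called, with Mmp2 and Mmp14 added as lower. In that fit 3355 of all 14625 genes tested were called, 1717 higher and 1638 lower. With all 12 libraries, the median log2 fold change of the 10 was −0.08, against 0.00 over all genes. The median absolute value was 0.41 against 0.17. The genes compared were not matched for level. For 40 °C against 37 °C, where no member was called, the median absolute value was 0.13 against 0.09. Bulk RNA cannot tell fewer cells of a type from less RNA per cell.

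Mmp3 (ENSMUSG00000043613, chromosome 9, 7445822 to 7455975, plus strand, 10 exons in its longest coding transcript) had 7.67, 6.07, 6.43 and 7.28 CPM in the 37 °C libraries. The gene had 6.68, 4.62, 5.94 and 6.84 CPM at 40 °C and 13.3, 9.84, 12.5 and 10.6 CPM at 44 °C. All 4 libraries at 44 °C stood above all 8 others, and the 37 °C and 40 °C libraries overlapped. The level was 11.6 ± 1.60 CPM at 44 °C against 6.86 ± 0.739 CPM at 37 °C (SD, n = 4 each). This was 1.68-fold, a log2 fold change of 0.75 ± 0.14 (SE, edgeR adjusted p = 0.00401). Against 40 °C (6.02 ± 1.01 CPM) it was 1.92-fold, a log2 fold change of 0.94 ± 0.14 (edgeR adjusted p = 0.00184). The counts behind these values were 73 to 227 reads per library.

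Mmp10 (ENSMUSG00000047562, chromosome 9, 7502352 to 7510240, plus strand, 10 exons) lies 46.38 kb beyond the end of Mmp3. It had 9.43, 8.07, 8.44 and 7.82 CPM at 37 °C, 8.88, 7.35, 8.07 and 8.33 CPM at 40 °C, and 14.4, 12.0, 10.8 and 11.7 CPM at 44 °C. Its 44 °C libraries again stood above all others, while those at 37 °C and 40 °C covered nearly the same range. Mmp10 reached 12.2 ± 1.53 CPM at 44 °C against 8.44 ± 0.708 CPM at 37 °C, a rise of 1.45-fold (log2 fold change 0.53 ± 0.11, edgeR adjusted p = 0.00808). Against 40 °C (8.16 ± 0.637 CPM) its log2 fold change was 0.58 ± 0.11 (edgeR adjusted p = 0.00803).

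Mmp13 encodes collagenase 3, which cuts type II collagen and is known as a product of hypertrophic chondrocytes. It is in the same cluster (ENSMUSG00000050578, chromosome 9, 7272514 to 7283331) but had only 6 to 39 reads per library. Its levels were 1.66, 1.21, 0.767 and 0.418 CPM at 37 °C, 1.13, 0.38, 1.25 and 1.43 CPM at 40 °C and 2.28, 1.15, 1.99 and 1.20 CPM at 44 °C. The groups overlapped, and the gene was not called for 44 °C against 37 °C. The log2 fold change was 0.68 ± 0.41 (edgeR adjusted p = 0.277). In a fit that added the axis score Mmp13 passed as higher (1.11, edgeR adjusted p = 0.0179, and 0.0179 to 0.534 across the alternatives).

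The cluster on chromosome 9 held 10 MMP genes over 427.1 kb, and 8 of them had at least 1 read. Besides Mmp3, Mmp10 and Mmp13, the collagenase genes Mmp1a and Mmp1b passed the filter and were not called for 44 °C against 37 °C. Mmp1a lies between Mmp3 and Mmp10 and had 0.878 ± 0.422 CPM at 44 °C against 0.848 ± 0.419 CPM at 37 °C (log2 fold change 0.03 ± 0.44, edgeR adjusted p = 0.97). Mmp1b had 2.46 ± 0.388 CPM at 44 °C against 2.07 ± 0.577 CPM at 37 °C (0.26 ± 0.22, edgeR adjusted p = 0.459). Mmp8, Mmp12 and Mmp27 had at most 5 reads in any library, and Mmp7 and Mmp20 had none. Handling of reads that map to several genes is not given in the sources used here, so the division of reads among these related genes is uncertain.

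Mmp14 encodes MT1-MMP, the membrane protease that activates latent MMP2 and cuts collagen at the cell surface. Its libraries at 37 °C lay close together, with 190, 192, 188 and 192 CPM. The levels were 178, 181, 187 and 204 CPM at 40 °C and 179, 164, 175 and 169 CPM at 44 °C. All 44 °C libraries lay below all 37 °C libraries, and those at 40 °C overlapped both. The log2 fold change for 44 °C against 37 °C was −0.15 ± 0.051 and just missed the threshold (edgeR adjusted p = 0.0662). It passed with DESeq2 (adjusted p = 0.034, and 0.034 to 0.176 across the alternatives), under the stricter count filter (0.0426), with the axis score in the fit (0.0429), without 40C replicate 4 (0.0433) and without 44C replicate 1 (0.0417). The groups did not overlap for 4 of the 10 genes in this comparison (Mmp3 and Mmp10 above, Timp2 and Mmp14 below), against 17.8% of all genes tested, 8.62% above and 9.13% below.

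Mmp2, the gene of gelatinase A, which cuts denatured and basement membrane collagens, had 8.88, 7.71, 5.96 and 8.83 CPM at 37 °C. It had 6.32, 3.74, 7.34 and 7.76 CPM at 40 °C and 7.01, 3.77, 6.15 and 4.34 CPM at 44 °C. The groups overlapped, and the low libraries were 40C replicate 2 and 44C replicates 2 and 4, which also scored lowest on the within-group axis. Mmp2 was not called for 44 °C against 37 °C (log2 fold change −0.56 ± 0.23, edgeR adjusted p = 0.116). It passed as lower without 44C replicate 1 (−0.72, edgeR adjusted p = 0.042, and 0.042 to 0.288 across the alternatives) and when no low-count filter was used (0.048). With the axis score in the fit its value was −0.30 (edgeR adjusted p = 0.128).

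Mmp19, a basement membrane protease gene, ranged from 7.73 to 12.8 CPM at 37 °C, 5.19 to 9.30 CPM at 40 °C and 6.13 to 9.87 CPM at 44 °C. It was not called for 44 °C against 37 °C (log2 fold change −0.41 ± 0.20, edgeR adjusted p = 0.183). Tmem198b, on the opposite strand with 202 to 401 reads per library, shares 789 exonic bases with Mmp19 (22.3% of its exonic length), and whether counting used the strand is not given in the sources used here.

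Timp2 (ENSMUSG00000017466, chromosome 11, 118301069 to 118355740, minus strand, 5 exons) had 289, 265, 254 and 262 CPM at 37 °C, 269.6, 231, 261 and 266 CPM at 40 °C, and 217, 189.7, 211 and 191 CPM at 44 °C. Every 44 °C library lay below every library of the other temperatures, and the 37 °C and 40 °C libraries overlapped. It fell to 202 ± 13.7 CPM at 44 °C, against 268 ± 15 CPM at 37 °C, a change of −24.5% (log2 fold change −0.41 ± 0.064, edgeR adjusted p = 0.00136). Against 40 °C (257 ± 17.8 CPM) the log2 fold change was −0.35 ± 0.064 (edgeR adjusted p = 0.0059). With 3123 to 5731 reads per library it was the most deeply counted of the 10 genes.

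The other inhibitor genes, Timp1 and Timp3, were not called. Timp1 (ENSMUSG00000001131, chromosome X, 20870166 to 20874735) had 161, 156, 161 and 153 CPM at 37 °C, 160.2, 169, 174 and 187 CPM at 40 °C and 154, 152, 154 and 168 CPM at 44 °C. At 44 °C against 37 °C its log2 fold change was −0.0084 ± 0.055 (edgeR adjusted p = 0.938), which changed sign without 37C replicate 3, 44C replicate 1 or 44C replicate 2. Timp3, whose product binds to the matrix and also inhibits ADAMTS proteases, ranged from 9.65 to 12.7 CPM at 37 °C, 9.76 to 13.1 CPM at 40 °C and 11.6 to 14.3 CPM at 44 °C. It was not called for 44 °C against 37 °C (0.22 ± 0.12, edgeR adjusted p = 0.223). Syn3, on the opposite strand with 1 to 11 reads per library, shares 1733 exonic bases with Timp3. Syn1 overlaps Timp1 on the opposite strand and Cep295nl overlaps Timp2 on the same strand, and neither shares an exonic base with it.

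Adamts1, a protease gene whose product cuts the proteoglycans versican and aggrecan, had 37.6, 28, 31.8 and 29.6 CPM at 37 °C. It had 26, 27.2, 30.5 and 32.2 CPM at 40 °C and 31.8, 23.6, 30.7 and 26.1 CPM at 44 °C. The 3 groups overlapped, and the log2 fold change for 44 °C against 37 °C was −0.18 ± 0.11 (edgeR adjusted p = 0.302). Leaving out 37C replicate 1 gave −0.09, and leaving out 44C replicate 2 gave −0.11, with no call in either fit.

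**Figure D2:**
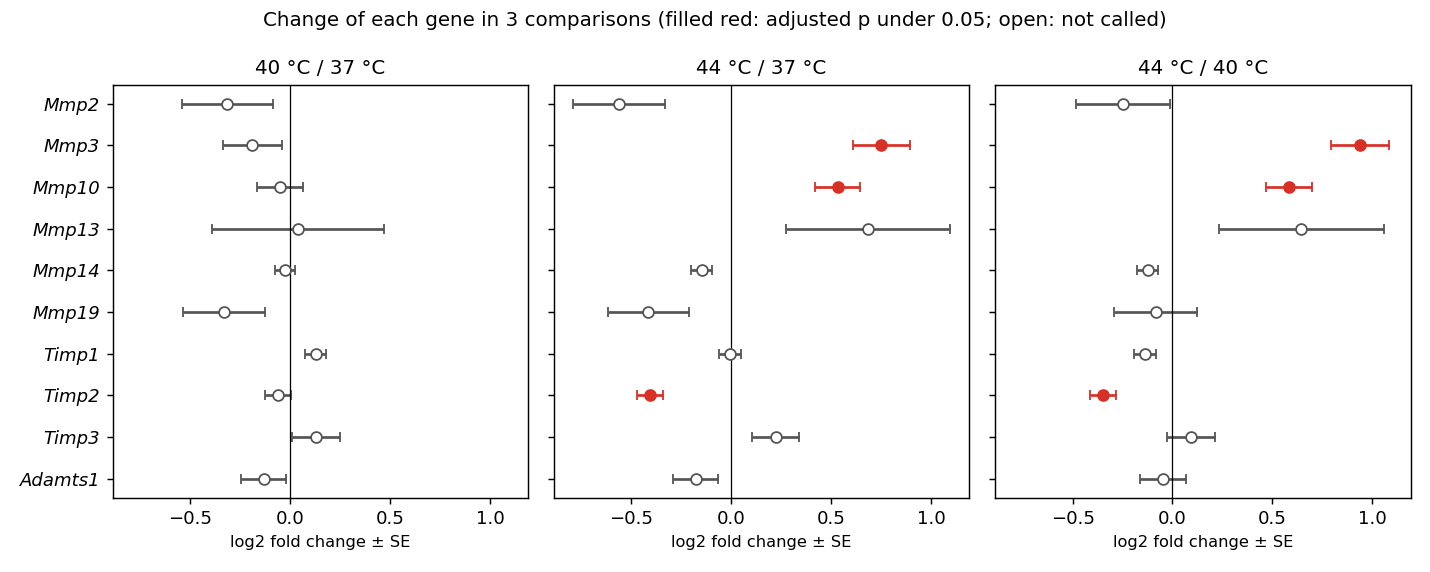
Log2 fold change with its SE for each gene in the comparisons of 40 °C with 37 °C, 44 °C with 37 °C and 44 °C with 40 °C; filled red points passed an adjusted p under 0.05. Mmp3, Mmp10 and Timp2 are filled in both comparisons of 44 °C, and none is filled for 40 °C.

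At 40 °C none of the 10 genes was called against 37 °C by edgeR, and none by DESeq2. The share of all genes called was 0%, and 752 genes had an unadjusted p under 0.05. DESeq2 called 4 genes of the table. Among the 10 only Timp1 had an unadjusted p under 0.05, with 173 ± 11.2 CPM at 40 °C against 158 ± 4.01 CPM at 37 °C (log2 fold change 0.13 ± 0.055, edgeR adjusted p = 0.823). The 9 others lay between −0.33 for Mmp19 and 0.13 for Timp3, and none of the 10 had groups that did not overlap, against 3.83% of all genes (1.61% higher and 2.23% lower). Mmp3 (−0.19 ± 0.15) and Mmp10 (−0.05 ± 0.12) both had their 40 °C mean below their 37 °C mean. Of the other protease genes, Mmp2 was at −0.31 ± 0.23, Mmp13 at 0.04 ± 0.43, Mmp14 at −0.02 ± 0.051 and Adamts1 at −0.13 ± 0.11, and Timp2 was at −0.06 ± 0.064. The sign for Mmp10 changed without 37C replicate 1.

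The direct comparison of 44 °C with 40 °C called Mmp3, Mmp10 and Timp2 and no other member. That was 2 higher and 1 lower of 10, where 5.02% of all genes were called, 1.88% higher and 3.14% lower. The 724 genes behind that share were 271 higher and 453 lower, or 396 higher and 355 lower with library totals in place of TMM. The groups did not overlap for Mmp3, Mmp10 and Timp2 here, against 10.7% of all genes, 5.28% above and 5.44% below. Timp1, at 157 ± 7.30 CPM at 44 °C and 173 ± 11.2 CPM at 40 °C, had a log2 fold change of −0.14 ± 0.055 (edgeR adjusted p = 0.175). The log2 fold changes of the other 6 genes, not called, were −0.25 ± 0.23 for Mmp2, 0.64 ± 0.41 for Mmp13, −0.12 ± 0.051 for Mmp14, −0.08 ± 0.21 for Mmp19, 0.09 ± 0.12 for Timp3 and −0.05 ± 0.11 for Adamts1. The comparisons share their libraries and are not independent of each other. In the joint test over the 3 temperatures 3 of the 10 were called, Mmp3 (edgeR adjusted p = 0.00187), Timp2 (0.00257) and Mmp10 (0.00687), against 8.21% of all genes.

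**Figure D3:**
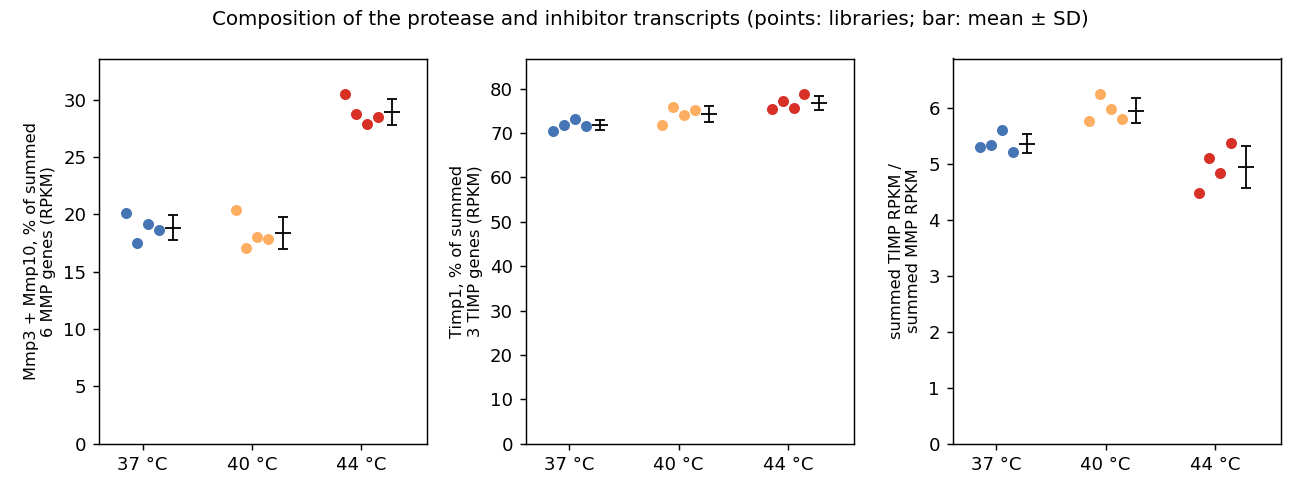
Share of Mmp3 plus Mmp10 in the summed RPKM of 6 MMP genes, share of Timp1 in that of 3 TIMP genes, and the ratio of summed TIMP to summed MMP RPKM, per library with mean and SD. The share of Mmp3 plus Mmp10 at 44 °C lies apart from the other temperatures, and the ratio at 40 °C lies above the 37 °C libraries.

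The summed MMP level overlapped between temperatures while its makeup differed at 44 °C. The 6 MMP genes summed to 46.2 ± 1.72 RPKM at 37 °C, 44 ± 3.40 RPKM at 40 °C and 46.7 ± 3.61 RPKM at 44 °C. Within that sum, Mmp3 and Mmp10, set together after their values were seen, took 17.5% to 20.1% at 37 °C, 17.1% to 20.4% at 40 °C and 27.9% to 30.5% at 44 °C. The share of Mmp14 was 65.8% to 71.3% at 37 °C, 68.4% to 76.1% at 40 °C and 58.3% to 63.7% at 44 °C. The 3 TIMP genes summed to 248 ± 6.91, 262 ± 14.1 and 230.3 ± 7.54 RPKM in the same order, and Timp1 made up 71.8%, 74.2% and 76.8% of it on average. TIMP over MMP transcripts was 5.22 to 5.61 at 37 °C, 5.77 to 6.26 at 40 °C and 4.49 to 5.37 at 44 °C. The ratio at 40 °C lay above all libraries of both other temperatures, and the 44 °C and 37 °C libraries overlapped. These sums and ratios describe transcripts, and no test was made on them.

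**Figure D4:**
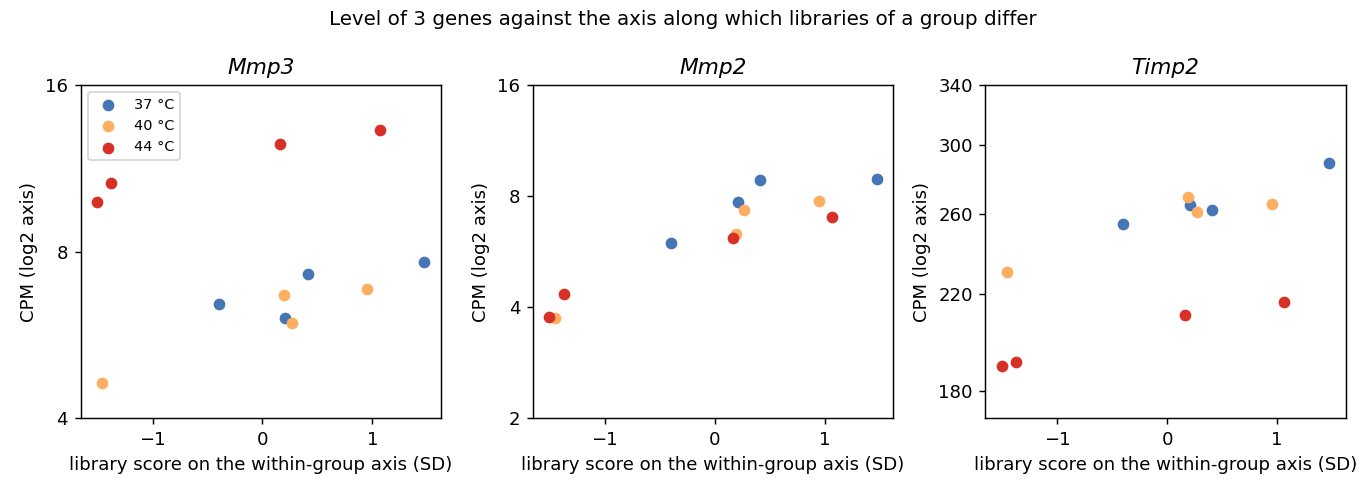
CPM (log2 axis) of Mmp3, Mmp2 and Timp2 in each library against the score of that library on the within-group axis, coloured by temperature. All 3 genes tend to higher levels at higher scores within a temperature, and the 44 °C libraries of Mmp3 stand above and those of Timp2 below the others at like scores.

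Several of the 10 genes varied together between libraries of 1 temperature. Over the 12 libraries, the deviation of a gene from its group mean correlated with the deviation on the within-group axis at r = 0.94 for Mmp2, 0.94 for Mmp19, 0.96 for Timp2 and 0.91 for Mmp3. It was 0.60 for Mmp10 and 0.09 for Timp1. The axis was built without the 10 genes, and these r describe libraries that share depth and preparation. Axis scores averaged 0.424 ± 0.779 in 37 °C libraries, −0.0113 ± 1.02 in 40 °C libraries and −0.413 ± 1.24 in 44 °C libraries. The score was added to the fit of the 10 genes. Because it also holds differences between temperatures, it can take up part of a temperature difference. Such a fit cannot part differences between replicates from those between temperatures. The score was estimated from the same libraries, which lowers the residual spread. The log2 fold changes for 44 °C against 37 °C were then 0.89 for Mmp3 (edgeR adjusted p = 4.05e-06), 0.60 for Mmp10 (0.000378) and −0.33 for Timp2 (5.47e-07). In the same fit Mmp19 was at −0.17 (edgeR adjusted p = 0.349), against −0.41 without the score, and Adamts1 at −0.07 (edgeR adjusted p = 0.586), against −0.18 without it.

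By likeness over the 12 libraries (Pearson correlation of log2 CPM with 10546 other genes of at least 5 CPM), Mmp3 was closest to Ramp3 (r = 0.97), Ids (0.97) and Irf8 (0.96). Timp2 was closest to the collagen gene Col6a1 (0.99), Ly6e (0.99) and Zcchc24 (0.99). Col6a1 had a log2 fold change of −1.17 for 44 °C against 37 °C (edgeR adjusted p = 0.00184). The closest genes were less alike for Timp3 (F2rl1, 0.87) and Timp1 (Zfp322a, 0.83). For Mmp13, compared with 10547 genes, Chmp4c (0.93) was closest. These values contain both the temperature differences and the within-group axis.

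Other genes of the same and related families were read against the shares of all genes called for 44 °C against 37 °C. Of 17 other MMP genes 11 were tested, and edgeR and DESeq2 each called 0 in every comparison. Of all genes, edgeR called 13.7% for 44 °C against 37 °C and 5.02% for 44 °C against 40 °C. For 44 °C against 37 °C, 3 of the 11 had an unadjusted edgeR p under 0.05, against 4455 of all 14424 genes. The median log2 fold change of the 11 was −0.30 in that comparison, against 0.00 over all genes. The most abundant of them, Mmp11, had 24.1 ± 5.24 CPM at 44 °C against 29.6 ± 4.01 CPM at 37 °C (edgeR adjusted p = 0.273). Of 10 other ADAMTS genes tested 1 was called for 44 °C against 37 °C, a count near the share over all genes. Adamts14, a procollagen-processing protease gene, fell (48.7 ± 9.10 CPM at 44 °C against 63.4 ± 5.49 CPM at 37 °C, edgeR adjusted p = 0.0425). For 44 °C against 40 °C, 1 of the 10 was called, where 5.02% of all genes were called, 1.88% higher. This was Adamts10, named after its value was seen, which rose (4.05 ± 0.606 CPM at 44 °C against 2.55 ± 0.393 CPM at 40 °C, log2 fold change 0.67 ± 0.17, edgeR adjusted p = 0.0399). Of 9 membrane ADAM genes tested 2 fell for 44 °C against 37 °C, where 7.11% of all genes did, the sheddase gene Adam10 (log2 fold change −0.26 ± 0.050, edgeR adjusted p = 0.00494) and Adam15 (−0.34 ± 0.080, edgeR adjusted p = 0.0133). Among 6 other inhibitor genes and relatives tested 1 was called for 44 °C against 37 °C, Serpinh1, which fell (−0.42 ± 0.051, edgeR adjusted p = 0.000224). Serpinh1 encodes the collagen chaperone HSP47, a serpin family member that does not inhibit proteases.

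Genes that activate MMPs or clear them had calls in both directions. Of 13 tested, 2 rose and 4 fell for 44 °C against 37 °C, where 6.58% of all genes were called higher and 7.11% lower. Plau, which encodes urokinase, an activator of plasmin and thereby of latent MMPs, reached 334 ± 34.3 CPM at 44 °C against 189 ± 25.7 CPM at 37 °C (log2 fold change 0.82 ± 0.13, edgeR adjusted p = 0.00175). All 44 °C libraries of Plau stood above those at 37 °C and at 40 °C. Lrp1, an uptake receptor gene for proteases and their inhibitors, fell (−0.45 ± 0.12, edgeR adjusted p = 0.0238), as did the lysosomal protease gene Ctsl (−0.23 ± 0.063, edgeR adjusted p = 0.0297). The urokinase receptor gene Plaur was the other gene that rose (0.37 ± 0.11, edgeR adjusted p = 0.031), named after its value was seen.

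Of 17 AP-1, ETS, RUNX and related factor genes, whose families bind MMP promoters, all were tested and 3 fell for 44 °C against 37 °C, where 7.11% of all genes did. The count called higher was 0 by edgeR and by DESeq2, which is near the 6.58% of all genes that edgeR called higher. DESeq2 called 4 of the 17 lower, and 1326 of all 14424 genes lower. For 6 of the 17 the unadjusted edgeR p was under 0.05, against 4455 of all 14424 genes. For 44 °C against 40 °C edgeR called 2 of the 17, both lower, where 3.14% of all genes were called lower. DESeq2 called 5 of the 17, of which 1 was higher, and 1220 of all 14424 genes, 450 higher and 770 lower. The 3 that edgeR called lower at 44 °C than at 37 °C were Junb (log2 fold change −0.29 ± 0.050, edgeR adjusted p = 0.00245), Cebpb (−0.48 ± 0.097, edgeR adjusted p = 0.00622) and the ETS factor gene Etv5 (−0.19 ± 0.055, edgeR adjusted p = 0.0355). Among the AP-1 genes named here because of the promoter motif, Fosl1 was at 249 CPM in 44 °C libraries and 236 CPM in 37 °C libraries (edgeR adjusted p = 0.495). Jun was at 83 CPM in 44 °C libraries and 83.4 CPM in 37 °C libraries (edgeR adjusted p = 0.966), and Fosb at 6.41 CPM in 44 °C libraries and 5.08 CPM in 37 °C libraries (edgeR adjusted p = 0.136). Fos, Fosl2, Jund and Atf3 of the same list were also tested, and edgeR called none of them for 44 °C against 37 °C. Of 13 cytokine and receptor genes tested from a list of known MMP inducers, 3 fell for 44 °C against 37 °C, where 7.11% of all genes did. DESeq2 called 4 of the 13 lower, and 1326 of all 14424 genes lower. The count that rose was 0 by both tools, near the 6.58% of all genes that edgeR called higher. For 6 of the 13 the unadjusted edgeR p was under 0.05, against 4455 of all 14424 genes. The 3 that edgeR called lower belonged to the interleukin 6 system. They were Il6 itself (−1.21 ± 0.17, edgeR adjusted p = 0.000643), its receptor gene Il6ra (−0.52 ± 0.056, edgeR adjusted p = 8.29e-05) and the shared receptor gene Il6st (−0.21 ± 0.043, edgeR adjusted p = 0.00568).

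Among matrix genes that encode known MMP substrates, 7 of 14 tested fell and 1 rose for 44 °C against 37 °C, with a median log2 fold change of −0.26 against 0.00 for all genes. Of all genes edgeR called 7.11% lower and 6.58% higher. DESeq2 called 10 of the 14, of which 2 were higher, and 2674 of all 14424 genes, 1348 higher and 1326 lower. Vcan, which encodes versican, fell to 405 ± 14 CPM at 44 °C, against 614 ± 19.9 CPM at 37 °C (−0.60 ± 0.049, edgeR adjusted p = 6.79e-06). Col3a1 (−1.27 ± 0.17, edgeR adjusted p = 0.00051) fell too, and the tenascin gene Tnc rose (0.72 ± 0.11, edgeR adjusted p = 0.00105). For 40 °C against 37 °C, edgeR and DESeq2 called 0 genes in each of these lists, and each list had at most 1 gene with an unadjusted p under 0.05.

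Summed markers of some other cell types did not overlap between 44 °C and 37 °C. The summed level of 6 smooth muscle and perivascular markers was 136 to 159 CPM at 44 °C against 201 to 231 CPM at 37 °C, and that of 10 macrophage and blood markers was 31.6 to 46 CPM at 44 °C against 46.4 to 66.2 CPM at 37 °C. The blood markers Adgre1 and Laptm5 were at 0 in all libraries, and Ptprc was at 0 at both temperatures. Other genes of that list made up its sum. Of the 10, 4 were tested, with a median log2 fold change of −0.89 for 44 °C against 37 °C. Of these 4, edgeR called 2 lower and 0 higher, where 7.11% of all genes were called lower. The 5 endothelial markers summed to 5.47 to 7.12 CPM at 44 °C against 4.01 to 4.48 CPM at 37 °C. The other lists overlapped, with 8 fibroblast markers at 58.8 to 84.6 CPM at 44 °C against 78.5 to 104 CPM at 37 °C. The 5 osteoblast markers gave 36.9 to 43.4 CPM at 44 °C against 32.1 to 42.8 CPM at 37 °C, and the 5 epithelial markers 120 to 147 CPM at 44 °C against 111 to 145 CPM at 37 °C. Their part in the values of Mmp3, Mmp10 and Timp2 was not tested.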

How the data were processed

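The authors deposited raw counts per gene, 1 column for each of 12 libraries. The tools named, per the submitters' processing notes, are featureCounts 1.5.0-p3, HISAT2 2.0.5, fastp and StringTie 1.3.3b, and the build is mm10. Their roles, strand setting and the treatment of multiply mapped reads are not given in the sources used here. Lengths and positions were read from the same table, and positions of all 10 genes equal those of GENCODE M21.

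Counts were fitted in R 4.3.3 with edgeR 4.0.16: filterByExpr (minimum count 10, minimum total 15), TMM scaling and a quasi-likelihood fit of the 3 temperature means to all 12 libraries. Adjusted p-values are Benjamini-Hochberg values over 14424 genes, with calls under 0.05. The SE is the absolute log2 fold change over the square root of F. Correlations used log2 CPM with a prior count of 2. RPKM is CPM per kilobase. A count of 0 allows up to 3 counts, 0.154 to 0.184 CPM by library, for counting error only. The fit was tested on simulated data.

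All 10 genes are named, and of other lists at most the 3 called genes of smallest p with at least 5 CPM, unless stated. The motifs TATAAA and AGGAAG and the sums and ratios of RPKM were chosen after values were seen. Labels do not say that replicates were separate cultures beyond the word biological, so p-values measure the spread between these libraries. The members and lists were chosen with earlier results of these data known. Replicates differed by more than sampling noise (chi-square per gene 2.88 to 21.4). Alternatives were library totals, DESeq2 1.42.0 and its size factors, 2 other count filters, 2 groups only, the replicate block, the axis as a covariate, a threshold of 0.01 and leaving out each library.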

Additional observations from a re-analysis of the deposited data

Results flagged for a closer look

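Within the groups of 4 libraries, 2 of 30 sets of values had 1 library far from the others by Dixon's test, where chance marks about 1 in 20. Timp1 had 168 CPM in 44C replicate 4, against 152 to 154 CPM in the other 44 °C libraries. Timp3 had 9.76 CPM in 40C replicate 2, against 12.6 to 13.1 CPM in the other 40 °C libraries.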

How the results depend on the processing

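Mmp3, Mmp10 and Timp2 were called in the same direction for 44 °C against 37 °C and against 40 °C under all 20 alternatives. Mmp13 had at most 39 reads in a library, and the part of depth in its SE was not tested. The count of called members for 44 °C against 37 °C was 3, and 5 with the axis as a covariate; it lay between 3 and 5 when 1 library was left out. In the joint test it was 5 with that covariate. Over the whole table, 44 °C against 37 °C gave 1975 calls, 3146 with the axis as a covariate, 630 at a threshold of 0.01, and 979 (without 37C replicate 1) to 3355 (without 44C replicate 1) when 1 library was left out; leaving out 37C replicate 2 (1156) or 4 (1063), or 44C replicate 2 (980) or 4 (1062), also moved it by over 1.5 times. For 44 °C against 40 °C, 724 calls became 1220 with DESeq2, 2534 with the axis, 334 with only those 2 groups, 270 at 0.01, and 394 (without 40C replicate 1) to 1265 (without 44C replicate 1) when 1 library was left out, with 421 and 420 without 40C replicates 3 and 4 and 426 and 456 without 44C replicates 2 and 4. For 40 °C against 37 °C there were 0 calls, 4 with DESeq2, 13 without a count filter, 11 with the axis, and 0 to 1 when 1 library was left out.

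Whether replicate numbers pair the samples could not be settled from these values. Same-numbered libraries correlated between −0.207 and 0.366, with 3 of 12 pairs above 0.1, and 6 of 12 libraries correlated best with their own number. With the replicate block, 2557 genes were called for 44 °C against 37 °C, 901 for 44 °C against 40 °C and 0 for 40 °C against 37 °C, and the members called stayed at 3, 3 and 0. Signs turned only for values near 0, none of them called. With the axis as a covariate, 44 °C against 40 °C turned to 0.0401 for Mmp19 and 0.0015 for Adamts1. When 1 library was left out, values lay between −0.0927 and 0.0104 for Mmp10, −0.21 and 0.40 for Mmp13 and −0.0659 and 0.00078 for Mmp14 (40 °C against 37 °C), between −0.0434 and 0.0076 for Timp1 (44 °C against 37 °C), and between −0.24 and 0.00042 for Mmp19 and −0.12 and 0.026 for Adamts1 (44 °C against 40 °C). The cause of these sign changes was not tested. The stricter count filter asked for at least 50 reads in at least 4 libraries. It gave no value for Mmp13, which had at most 39 reads in a library.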
